A study of Sus scrofa with 12 samples.

Results

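The 10 glycolytic enzymes described here are those that a skeletal muscle fibre uses between glucose 6-phosphate and lactate: *GPI*, *PFKM*, *ALDOA*, *TPI1*, *GAPDH*, *PGK1*, *PGAM2*, *ENO3*, *PKM* and *LDHA*. They were chosen by name and by their place in the pathway, as 10 of the 28195 genes annotated on the chromosomes of the pig genome build Sscrofa11.1. An assembled transcript counted for an enzyme where at least 50% of its exonic bases lay in the exons of that gene on the same strand. Levels are in FPKM, the fragments of a transcript scaled to its length and to the mapped fragments of the library. The FPKM of each assigned transcript was multiplied by its whole length, bases outside the gene included, and summed over the transcripts of an enzyme. This sum was divided by the number of exonic bases annotated for that enzyme.

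RNA came from the *Longissimus dorsi* (loin) muscle of castrated male pigs of 1 closed purebred Iberian line, slaughtered in the second year of life after free-range fattening on acorns and grass, with 1 library per animal. The Tough group (n = 6) had a shear force of 7.32 to 10.63 kg/cm2 and estimated breeding values for shear force of 1.76 to 2.40, and the Tender group (n = 6) had a shear force of 2.18 to 3.43 kg/cm2 and breeding values of -1.09 to -0.98. The animals were picked for extreme breeding values, with siblings of any kind avoided, so the gap in shear force comes from the selection. All 12 animals shared the line, sex and feeding system, and no source used here gives their fattening batches or sequencing lanes. The study reports less intramuscular fat in the Tough than in the Tender group, so fat content cannot be told apart from shear force here.

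Glycolysis splits glucose into pyruvate in the cytosol and yields ATP without oxygen, and lactate dehydrogenase turns pyruvate into lactate so that the pathway can run on. Fast-twitch fibres, which fill most of the pig loin, carry these enzymes at very high levels and store glycogen as their fuel. After slaughter the same pathway goes on without a blood supply, and the lactate and protons it leaves behind set the fall of muscle pH. Most of the steps have several isozymes from separate genes, and *PFKM*, *PGAM2*, *ENO3*, *ALDOA* and *LDHA* are the forms that dominate in skeletal muscle.

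Pyruvate kinase is the exception, since 1 gene, *PKM*, makes a muscle form (M1) and a form of proliferating and many non-muscle tissues (M2) by using 1 of 2 exons of equal length. Both exons are coding, lie on the + strand of chromosome 7 in Sscrofa11.1, and are shown because they decide which enzyme a transcript encodes. The M1 exon is at chr7:61028764-61028930 and is used by 9 annotated transcript models. The M2 exon is at chr7:61029321-61029487 and is used by 4. Read from the RefSeq genome, 5′ to 3′, with capitals for the bases that differ between them, the exons are:
PKM M1 exon: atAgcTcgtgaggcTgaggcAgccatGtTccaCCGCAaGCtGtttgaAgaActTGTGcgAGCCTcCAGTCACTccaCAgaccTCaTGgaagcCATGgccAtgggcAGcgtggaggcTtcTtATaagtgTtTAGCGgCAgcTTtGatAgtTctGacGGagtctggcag
PKM M2 exon: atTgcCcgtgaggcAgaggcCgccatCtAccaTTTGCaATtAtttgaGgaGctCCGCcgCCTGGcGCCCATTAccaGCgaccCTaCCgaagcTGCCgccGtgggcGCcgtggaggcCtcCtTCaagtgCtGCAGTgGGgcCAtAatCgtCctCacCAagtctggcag
They differ at 66 of 167 positions and are 60.5% identical.

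Transcripts with the M1 exon were assembled in all 12 libraries and transcripts with the M2 exon in 0. M1 transcripts of *PKM* had 644 to 3027 FPKM in the 6 Tough libraries and 1003 to 2503 FPKM in the 6 Tender libraries. The M1 share was therefore 100% of the *PKM* FPKM that held either exon in every library of both groups, so there was no difference to test. A minor M2 form that Cufflinks left out of its assembly would not be seen in these files, and their depth sets no limit on its share, since they hold no read counts.

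The 12 files list 25798 to 31353 transcripts per library, and 63.2 to 73.8% of them were assigned to a gene. Depth can be read only as the coverage that 1 FPKM stands for, which ranged from 6.56 to 10.28 between libraries (median 8.06). The labelled tissue was checked against 10 markers of skeletal muscle: 9 were measured above the minimum, among them *PYGM*, *TTN* and *RYR1*, while *ACTA1*, the main muscle actin, was assembled in 0 libraries, and *CKM*, *DES* and *ACTN2* are listed at 0 in 7, 5 and 5 libraries. In bulk tissue, fewer cells of a type and less RNA per cell cannot be told apart.

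No enzyme of the pathway passed the test between Tough and Tender loins. limma on log2(FPKM + 0.5) tested 9019 genes, and 0 of them (0%) met the thresholds together, a p up to 0.05, a Benjamini-Hochberg adjusted p up to 0.1 and a difference of 1.5 times or more, with a smallest adjusted p of 0.652. The unadjusted p alone was 0.05 or less for 224 genes (2.48%), of which 65 were higher (0.721%) and 159 lower (1.76%) in Tough. Of the 10 enzymes, 0 reached an unadjusted p of 0.05, and the groups overlapped for all 10. Other settings brought up to 3 of them to it, still far from the adjusted threshold: quantile normalization gave an unadjusted p of 0.03 for *PFKM*, 0.0387 for *TPI1* and 0.0451 for *LDHA*, array weights gave 0.0473 for *PFKM*, and transcripts at least 90% in the gene gave 0.0259 for *ENO3* (8 libraries) and 0.0492 for *PGAM2* (5 libraries). Leaving out 1 library did so for *PFKM* (0.034 without Tough 4, 0.0314 without Tender 2) and *LDHA* (0.00842 without Tender 1). Over all genes tested, 9 (0.0998%) had groups that did not overlap, 2 with Tough above (0.0222%) and 7 with Tender above (0.0776%). By sign alone, 8 of the 10 enzymes were higher in Tough with a median log2 fold change of 0.21, while 39.7% of all genes tested were higher in Tough with a median of -0.04. Among the other 256 genes with a mean of at least 100 FPKM on the log2 scale, 25.8% were higher in Tough, with a median of -0.12. In these shares a library without a transcript was missing for the enzymes but at 0 for every other gene. With such libraries at 0 for the enzymes too, 5 of the 10 were higher in Tough. The 10 enzymes are not independent replicates of a condition, and no test was made over the list.

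**Figure D1:**
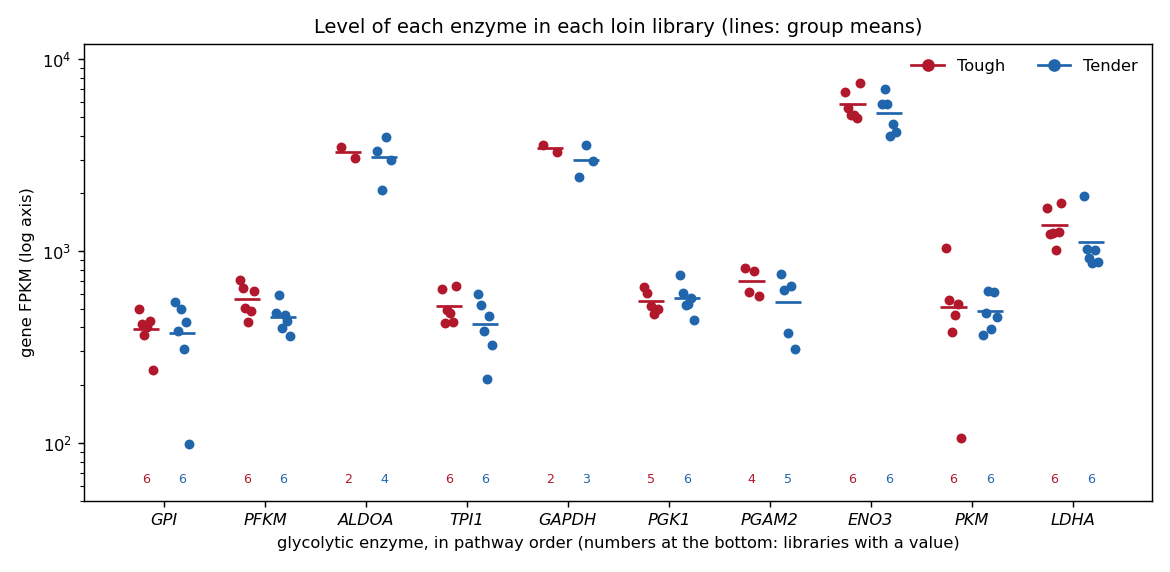
Gene FPKM per annotated exonic length of the 10 enzymes (log axis, pathway order) in each Tough (red, left) and Tender (blue, right) library, with lines at the group means and the number of libraries with a value below. The groups overlap for every enzyme, *ENO3* has 3957 to 7537 FPKM, and *ALDOA* and *GAPDH* have values in 6 and 5 libraries.

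Median levels per exonic length differed between enzymes by more than 10-fold. On this measure *ENO3* was highest, with a median of 5323 FPKM over 12 libraries, and its lowest library (3957 FPKM) lay above the highest value of any other enzyme. *GAPDH* (median 3283 FPKM in 5 libraries) and *ALDOA* (median 3185 FPKM in 6 libraries) followed and overlapped each other. *LDHA* came next with a median of 1130.4 FPKM and a range of 870.3 to 1940.4 FPKM. *PGAM2*, *PGK1*, *PFKM*, *PKM*, *TPI1* and *GPI* had medians of 626, 533, 483, 471, 468 and 411 FPKM, and each overlapped its neighbours in this order.

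The order depends on the length used and on whether transcript bases outside the gene count, as they do in the levels above. With only the bases inside annotated exons counted, over the same annotated length, *ENO3* had 2501 to 6105 FPKM. On that count *ALDOA* reached 3887 FPKM and *GAPDH* 3448 FPKM, so both overlapped *ENO3*. Over the exon bases that all coding models of an enzyme share, *GAPDH* had 6459 to 10256 FPKM (median 7957 FPKM in 5 libraries), above every library of *ENO3* at 2501 to 6105 FPKM (median 4531 FPKM), and *ALDOA* had 3666 to 10105 FPKM (median 7269 FPKM in 6 libraries). For *PKM*, the annotation gives 7452 exonic bases, of which 3815 belong to a block upstream (9 models), 3637 to the block that encodes pyruvate kinase (11 models), while 2 models span both blocks. The highest transcript of the upstream block had 6.01 to 46.5 FPKM in a library, against 659 to 2430 FPKM for the highest transcript of the pyruvate kinase block. Counted over the exon bases that the models with the M1 or M2 exon share, *PKM* had 971 to 2766 FPKM (median 1327 FPKM), which overlaps the 1242 to 2381 FPKM of *LDHA* on its own shared bases.

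*GPI*, on chromosome 6 (44038374 to 44069331, + strand), turns glucose 6-phosphate into fructose 6-phosphate. Its level was 241 FPKM at the lowest (Tough 6), 411 at the median and 497 at the highest (Tough 1) in the Tough group, against 98.6 (Tender 6), 405 and 540.4 FPKM (Tender 1) in the Tender group. The means of 392 ± 86.1 FPKM in Tough and 376 ± 159 FPKM in Tender (SD, n = 6 each) differed by less than the spread (exact permutation test, two-sided, p = 0.835), and the log2 fold change was 0.21 with a standard error of 0.37. The 2 lowest libraries each hold a further transcript over *GPI*, of 8485 bases and 74.9 FPKM in Tough 6 and of 10128 bases and 35.7 FPKM in Tender 6, which lies in *GPI* for 16.7 and 15.8% of its length and was not assigned to it. Without Tender 6 the log2 fold change was -0.14, the opposite direction.

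*PFKM*, muscle phosphofructokinase, catalyses the committed and most tightly regulated step. On chromosome 5 (78475473 to 78525052, + strand), it had 425 FPKM at the lowest (Tough 4), 561 at the median and 704 at the highest (Tough 1) in Tough libraries, against 362 (Tender 6), 450.3 and 592 FPKM (Tender 2) in Tender libraries. Means were 563 ± 106 FPKM in Tough and 455 ± 80.0 FPKM in Tender (SD, n = 6 each; two-sided exact permutation test, p = 0.0736). The log2 fold change was 0.30 with a standard error of 0.16, an unadjusted p of 0.0827, the smallest of the 10 enzymes, and an adjusted p of 0.9999 in limma. 3 Tough libraries (1, 2 and 6) lay above every Tender library, while the other 3 lay within the Tender range. This value rests on single libraries and on the way transcripts are summed: the exact permutation p was 0.0303 without Tough 4 and 0.0325 without Tender 2, and the log2 fold change was 0.17 over the exon bases shared by all coding models and -0.08 for the highest transcript alone.

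2 starts of *PFKM* were assembled, 1 between 78498716 and 78498763 in 10 libraries and 1 between 78501774 and 78501917 in 12 libraries. The upstream start carried 0 to 44.9% of the FPKM of these long transcripts in Tough libraries, with the highest share in Tough 5 and 0% in Tough 6, and 0 to 21.9% in Tender libraries, with 0% in Tender 5. All other libraries had 13.5 to 22.2%, and the groups overlapped.

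*ALDOA*, muscle aldolase, splits fructose 1,6-bisphosphate into 2 triose phosphates. It lies on chromosome 3 (18246036 to 18260167, + strand) and was assembled in 2 Tough libraries, at 3491 (Tough 1) and 3056 FPKM (Tough 3), and in 4 Tender libraries, at 3314 (Tender 1), 2074 (Tender 4), 3922 (Tender 5) and 2990 FPKM (Tender 6). The 4 Tender values enclose both Tough values. Means were 3273 ± 307 FPKM in Tough (SD, n = 2) and 3075 ± 771 FPKM in Tender (SD, n = 4; exact permutation test, two-sided, p = 0.733, with 0.133 the smallest p this design allows). The log2 fold change of 0.12 had a standard error of 0.30 and was -0.05 without Tender 4.

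*GAPDH*, which oxidises glyceraldehyde 3-phosphate and makes NADH, lies on chromosome 5 (64129678 to 64135194, - strand). It was assembled at 3586 (Tough 1) and 3283 FPKM (Tough 3), against 2420.04 (Tender 4), 3585 (Tender 5) and 2955 FPKM (Tender 6). With 3434 ± 214 FPKM in Tough (SD, n = 2) and 2987 ± 583 FPKM in Tender (SD, n = 3), the groups overlapped (exact permutation test, two-sided, p = 0.4, with 0.2 the smallest p this design allows). The log2 fold change was 0.22 with a standard error of 0.27, and -0.05 over the exon bases that all coding models share. With only bases inside annotated exons counted, the groups did not overlap, at 3283 to 3448 FPKM in Tough and 2419 to 3129 FPKM in Tender. The two-sided exact permutation test then gave p = 0.2, the smallest that 2 against 3 libraries allow.

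Whether these enzymes were assembled at all did not differ detectably between the groups, and it moved with depth. *ALDOA* had a transcript in 2 of 6 Tough and 4 of 6 Tender libraries (Fisher's exact test, two-sided, p = 0.567), and *GAPDH* in 2 of 6 and 3 of 6 (p = 1). The 6 libraries with an *ALDOA* transcript had a coverage per FPKM of 6.56 to 8.05 and the 6 without had 8.07 to 10.28. For *GAPDH*, the 5 libraries with a transcript had 6.56 to 7.89 and the 7 without had 8.05 to 10.28. Cufflinks can skip a locus that holds too many fragments, and whether it did so here was not tested. A library without a transcript of these genes was taken as missing, not as 0.

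**Figure D2:**
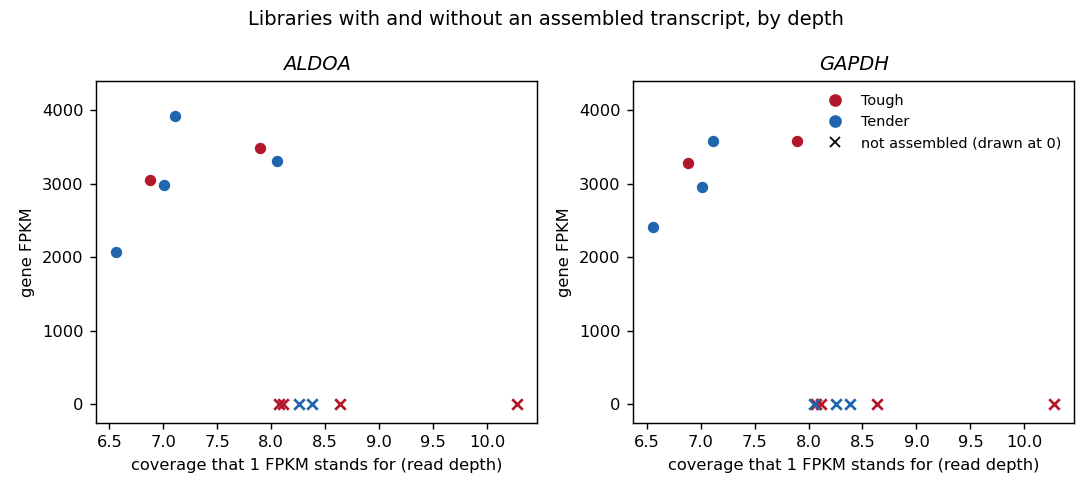
Gene FPKM of *ALDOA* (left) and *GAPDH* (right) against the coverage that 1 FPKM stands for in each of the 12 libraries, Tough in red and Tender in blue, with crosses at 0 for libraries without an assembled transcript. All crosses lie at 8.05 or above and all dots at 8.05 or below, in both groups.

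*TPI1* interconverts the 2 triose phosphates, so that both can go on to pyruvate. This gene of chromosome 5 (63839473 to 63842853, - strand) was the simplest to measure, with exactly 1 transcript of 643 to 668 bases and 7 exons per library, against 1157 exonic bases in the annotation. Its level was 420.6 FPKM at the lowest (Tough 2), 487 at the median and 657 at the highest (Tough 6) in Tough, against 216 (Tender 4), 420.5 and 599 FPKM (Tender 1) in Tender. 3 Tender libraries (3, 4 and 6) lay below every Tough library and 2 Tough libraries (1 and 6) above every Tender library. Means of 519.6 ± 103 FPKM in Tough and 418 ± 139 FPKM in Tender (SD, n = 6 each) gave p = 0.184 in the exact permutation test (two-sided), and the log2 fold change was 0.37 with a standard error of 0.24. Without Tender 4 it was 0.19.

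*PGK1* makes the first ATP of the payoff phase and is X-linked (62187472 to 62210321, + strand). Its 5 Tough libraries had 648 (Tough 2), 605 (Tough 3), 515 (Tough 4), 469 (Tough 5) and 502 FPKM (Tough 6), and the Tender libraries had 436 FPKM at the lowest (Tender 6), 553 at the median and 749 at the highest (Tender 1). Tough 1 has no value because its transcript of 4797 bases lies in the gene for 36.7% of its length. The means of 548 ± 75.2 FPKM in Tough (SD, n = 5) and 569 ± 105 FPKM in Tender (SD, n = 6) were within the spread (exact permutation test, two-sided, p = 0.732). *PGK1* had a log2 fold change of -0.05 with a standard error of 0.16, and the sign changed under both scalings of the libraries, to 0.04 with median-of-ratios factors and 0.20 with quantile normalization, and on leaving out Tough 5 (0.01) or Tender 1 (0.04).

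*PGAM2*, the muscle phosphoglycerate mutase on chromosome 18 (48693832 to 48712787, + strand), moves the phosphate from the third to the second carbon. It had 814 (Tough 1), 614 (Tough 2), 786 (Tough 4) and 583 FPKM (Tough 5) in Tough, against 755 (Tender 1), 626 (Tender 3), 375 (Tender 4), 658 (Tender 5) and 310.02 FPKM (Tender 6) in Tender. The 2 lowest values were Tender, and the other 3 Tender values lay within the Tough range. Means were 699 ± 118 FPKM in Tough (SD, n = 4) and 545 ± 192 FPKM in Tender (SD, n = 5; exact permutation test, two-sided, p = 0.238). This was the largest log2 fold change of the 10 enzymes, 0.43 with a standard error of 0.29. In Tough 3, Tough 6 and Tender 2 the only *PGAM2* transcripts ran on for 3257 to 6544 bases, with 36.4 to 39.7% of them in the gene, and were not assigned. Over the exon bases shared by all coding models, where all 12 libraries have a value, these 3 libraries were the lowest, at 449, 462 and 427 FPKM, and the means were 1109.9 ± 601 FPKM in Tough and 873 ± 408 FPKM in Tender (SD, n = 6 each; two-sided exact permutation test, p = 0.429).

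*ENO3*, the muscle enolase that makes phosphoenolpyruvate, lies on chromosome 12 (51954614 to 51959991, - strand). Tough libraries had 4914 FPKM at the lowest (Tough 5), 5323 at the median and 7537 at the highest (Tough 6), against 3957 (Tender 4), 5205 and 6983 FPKM (Tender 2) in Tender libraries. The 3 lowest libraries were Tender and the highest was Tough, with the rest interleaved. Means of 5823 ± 1069.8 FPKM in Tough and 5226 ± 1179.5 FPKM in Tender (SD, n = 6 each) gave p = 0.37 in the exact permutation test (two-sided), with a log2 fold change of 0.17 and a standard error of 0.18. Quantile normalization turned the sign, to -0.03, while the log2 fold change was 0.32 over the exon bases shared by all coding models (two-sided exact permutation test, p = 0.0779) and 1.32 in the 8 libraries that had a transcript at least 90% in the gene (unadjusted p = 0.0259, adjusted p = 0.9999 in limma).

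*PKM* makes pyruvate and the last ATP of the pathway, on chromosome 7 (60971807 to 61032780, + strand). Its level was 107 FPKM at the lowest (Tough 6), 498 at the median and 1039.5 at the highest (Tough 1) in Tough, against 364 (Tender 1), 465.9 and 617 FPKM (Tender 3) in Tender, so that both ends of the range were Tough. Means were 513 ± 305 FPKM in Tough and 487 ± 107 FPKM in Tender (SD, n = 6 each; two-sided exact permutation test, p = 0.842), while the log2 fold change was -0.17 with a standard error of 0.43. The mean FPKM and the mean log2 value point opposite ways, which rests on Tough 6 and Tough 1. Without Tough 6, which is low on the log scale, the log2 fold change was 0.23. Without Tough 1 the log2 fold change was -0.43, and the difference of mean FPKM, Tough minus Tender, was -79.3. In Tough 6 the M1 transcript has 6306 bases with 42.8% of them in the annotated exons, so it was not assigned. Tender 1 and Tough 4 also each have an unassigned *PKM* transcript, of 648 FPKM and 5590 bases in Tender 1 and of 762 FPKM and 2367 bases in Tough 4. On the exon bases shared by the models with the M1 or M2 exon, Tough 6 had 971 FPKM, Tender 1 was the highest Tender library at 1784 FPKM, and the means were 1467 ± 680 FPKM in Tough and 1458 ± 302 FPKM in Tender (SD, n = 6 each; two-sided exact permutation test, p = 0.989).

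*LDHA*, the muscle subunit of lactate dehydrogenase, reduces pyruvate to lactate. On chromosome 2 (40814163 to 40827284, - strand), it had 1008 FPKM at the lowest (Tough 4), 1249 at the median and 1778 at the highest (Tough 6) in Tough, against 870.3 (Tender 4), 972 and 1940.4 FPKM (Tender 1) in Tender. Tender 1 was the highest of all 12 libraries, and the other 5 Tender libraries had 870.3 to 1027 FPKM, of which only 2 exceeded the lowest Tough library. Means were 1366 ± 296 FPKM in Tough and 1109 ± 413 FPKM in Tender (SD, n = 6 each; two-sided exact permutation test, p = 0.225), with a log2 fold change of 0.34 and a standard error of 0.22 (unadjusted p = 0.145, adjusted p = 0.9999 in limma). The result turns on Tender 1: without it the log2 fold change was 0.51, with p = 0.00866 in the exact permutation test (two-sided) and an adjusted p of 0.9999 in limma.

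**Figure D3:**
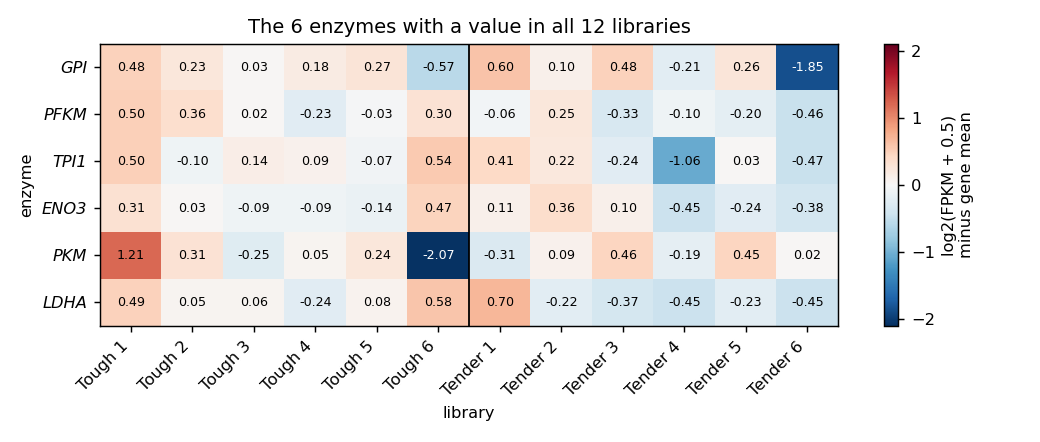
log2(FPKM + 0.5) minus the mean of the gene (colour and number) for the 6 enzymes with a value in all 12 libraries, Tough on the left and Tender on the right of the line. Tough 1 is above the mean for all 6 enzymes and Tender 4 for none, and the largest deviations are single values, -2.07 for *PKM* in Tough 6 and -1.85 for *GPI* in Tender 6.

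The 6 enzymes with a value in every library were also compared animal by animal. Averaged over the 6, Tough 1 stood highest, at 0.58 above the gene means on the log2 scale with 6 of 6 enzymes above their own mean. Tender 6 (-0.60, 1 of 6 above) and Tender 4 (-0.41, 0 of 6 above) were lowest, and the other 9 libraries lay between -0.12 and 0.24. Over the 12 libraries the Pearson correlations of the 15 pairs ranged from -0.30 to 0.81 (median 0.36), and 11 were positive. *TPI1* with *ENO3* (0.81) and *TPI1* with *LDHA* (0.78) were closest. *PKM* had negative values with 4 of the other 5 (-0.30 to 0.37), and these rest on Tough 6, whose M1 transcript was not assigned. Without Tough 6 all 15 pairs were positive, at 0.18 to 0.78, and those of *PKM* were 0.18 to 0.44. On shared exon bases, with Tough 6 kept, 14 of the 15 were positive, and the exception was *PKM* with *PFKM* (-0.19). Averaged over the 6 enzymes on these bases, Tough 1 was again highest (0.54), and Tender 6 (-0.50) and Tender 4 (-0.43) again lowest. All points of such a correlation share the depth and scaling of their library, so these values are descriptions. The genes whose log2 levels were most like the mean profile, of 7323 compared over the 12 libraries, were *SLC37A3* (Pearson r = 0.83), *PCCB* (0.83), *KCTD2* (0.82), *OAZ1* (0.82) and *SUMO3* (0.81), and with the mean profile on shared exon bases their r was 0.61 to 0.66. They were picked as the highest of 7323 correlations, a choice that favours high values, and no test was made of them.

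Beyond the enzymes described above, 19 further genes for the same or neighbouring reactions were listed, and 9 of the 10 that could be tested were lower in Tough, with a median log2 fold change of -0.31. Among those lower, *HK2* (-0.65) is counted with a 0 in Tough 6, where 1 of the 10 enzymes would have been missing. Where assembled, *HK2* had 5.70 to 13.8 FPKM in Tough and 2.74 to 13.97 FPKM in Tender, so its direction rests on that 0. Of the 10 further genes tested, 0 passed the test over all genes, and 2, *LDHB* and *PFKL*, reached an unadjusted p of 0.05, both lower in Tough (1.76% of all genes did so). *GAPDHS*, *LDHC* and *PGK2*, forms of sperm or testis, and *PKLR*, the pyruvate kinase of liver and red cells, had no assigned transcript in any library.

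*LDHB*, the heart subunit of lactate dehydrogenase that predominates in oxidative tissue, is on chromosome 5 (51810932 to 51831218, + strand). An intronless copy with the same symbol lies on chromosome 2 and was left out, and reads that fit both could have been split between them. *LDHB* had 50.8 FPKM at the lowest (Tough 6), 94.1 at the median and 145 at the highest (Tough 1) in Tough, against 91.4 (Tender 2), 184 and 222 FPKM (Tender 6) in Tender. 4 Tender libraries (3 to 6) lay above every Tough library, and Tender 1 and Tender 2 lay within the Tough range. The log2 fold change was -0.82 with a standard error of 0.28 (unadjusted p = 0.0132, adjusted p = 0.9999 in limma), and the unadjusted p stayed between 0.00314 and 0.0315 as each library was left out. With transcripts at least 90% in the gene the log2 fold change was -2.11 and the unadjusted p was 0.105.

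*PFKL*, liver phosphofructokinase, was at 1.84 to 4.97 FPKM in Tough (median 3.19 FPKM) and 2.94 to 7.68 FPKM in Tender (median 5.43 FPKM), with a log2 fold change of -0.57 and a standard error of 0.24 (unadjusted p = 0.037, adjusted p = 0.9999 in limma). Its unadjusted p was 0.05 or less in only 4 of the 12 fits that left out 1 library, and 0.0856 at the highest. *PGAM1*, the brain form of the mutase, had a log2 fold change of -0.39 (standard error 0.21) and *ALDOC*, the brain aldolase, of -0.47 (standard error 0.30), with unadjusted p of 0.0836 and 0.143. These genes are rare beside their muscle counterparts, at medians of 7.86 FPKM in Tough and 11.08 FPKM in Tender for *PGAM1* and of 2.18 FPKM in Tough and 2.77 FPKM in Tender for *ALDOC*.

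**Figure D4:**
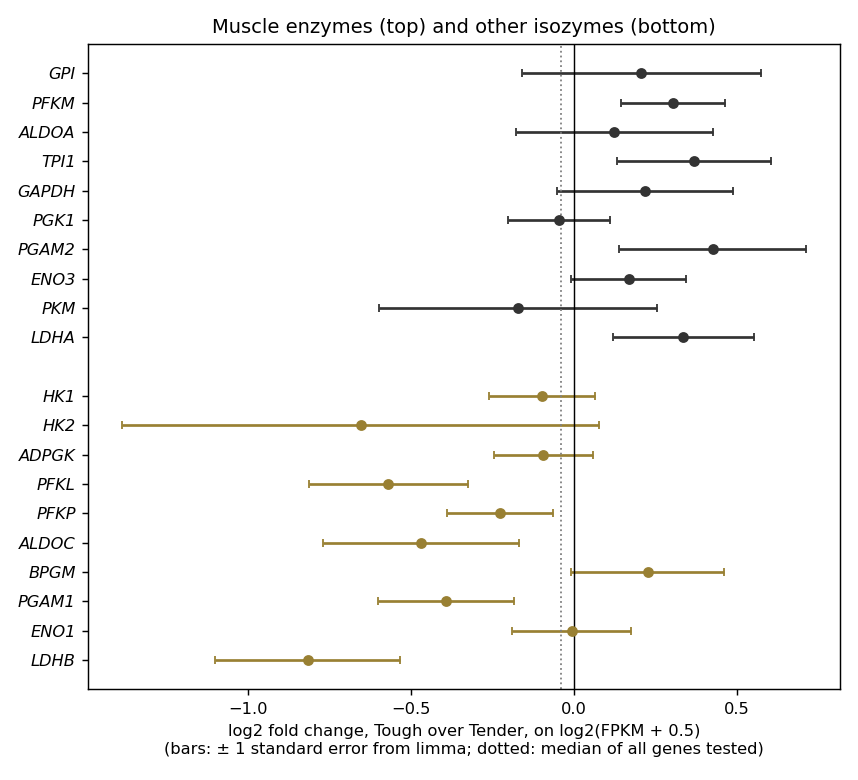
log2 fold change, Tough over Tender, with bars of 1 standard error from limma, for the 10 enzymes described here (black, top) and the 10 further genes tested for the same or neighbouring reactions (brown, bottom), with a dotted line at the median of all genes. 8 of the 10 enzymes lie right of 0 and 9 of the 10 further genes left of it, and *LDHB* lies lowest at -0.82. A library without a transcript is missing for the 10 enzymes but at 0 for the further genes, which affects *HK2* in Tough 6.

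The ratio of a muscle isozyme to its counterpart compares both within 1 library and does not depend on how libraries are scaled. It is given as a description, because the pairs were formed with the fold changes known. *LDHA* over *LDHB* was 9.54 to 35.0 in Tough (median 13.3) and 3.94 to 15.8 in Tender (median 4.99), where 4 Tender libraries lay below every Tough library. *PFKM* over *PFKL* was 102 to 336 in Tough (median 166) and 51.7 to 162 in Tender (median 81.2), and *PFKM* over *PFKP* was 208 to 385 in Tough (median 291) and 146 to 242 in Tender (median 197). *ENO3* over *ENO1* was 117 to 218 in Tough (median 153) and 115 to 189 in Tender (median 139), and *PGAM2* over *PGAM1* was 59.7 to 100.97 in Tough (n = 4) and 26.1 to 126 in Tender (n = 5). The ranges of the groups overlapped for every pair.

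**Figure D5:**
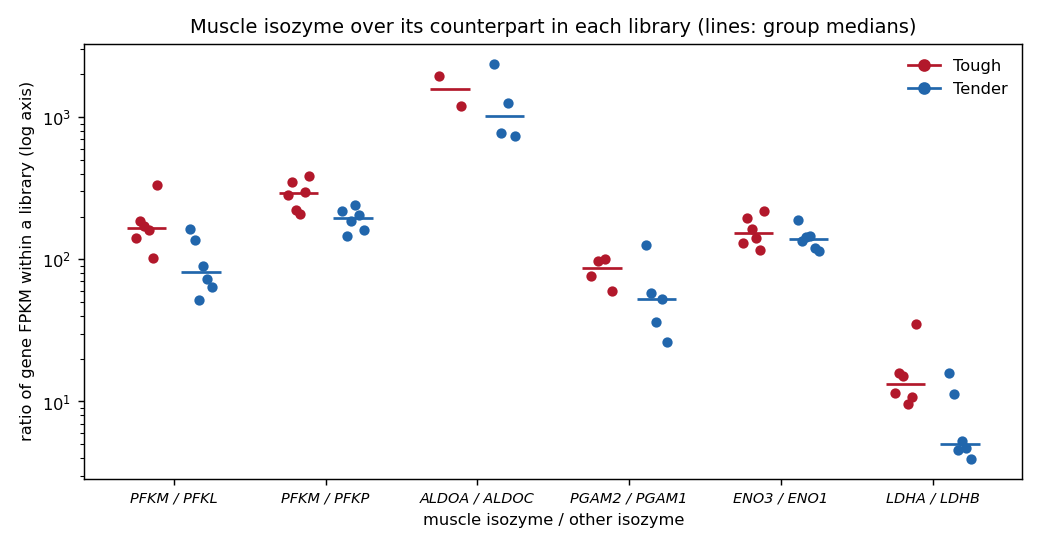
Ratio of gene FPKM of a muscle isozyme to another isozyme in each library (log axis), Tough in red on the left and Tender in blue on the right of each pair, with lines at the medians. The medians for *LDHA* over *LDHB* are 13.3 in Tough and 4.99 in Tender, and no pair separates the groups.

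Genes that steer glycolytic flux showed no common direction. Of 14 listed, 11 were tested, 5 were higher and 6 lower in Tough, and the median log2 fold change was -0.05. *TIGAR*, a phosphatase that lowers fructose 2,6-bisphosphate, the activator of phosphofructokinase, was the only one with an unadjusted p under 0.05 in the test over all genes. Of all genes tested, 1.76% were lower in Tough at an unadjusted p of 0.05. *TIGAR* had 2.65 to 4.26 FPKM in Tough (median 3.18 FPKM) and 3.45 to 7.20 FPKM in Tender (median 5.03 FPKM), with a log2 fold change of -0.51 and a standard error of 0.18 (unadjusted p = 0.0156, adjusted p = 0.9999 in limma). *GPD2*, the mitochondrial enzyme of the glycerol phosphate shuttle, had a log2 fold change of 0.54 (standard error 0.27, unadjusted p = 0.0618). *FBP2*, the muscle fructose bisphosphatase that runs against phosphofructokinase, had 0.42 (standard error 0.21, unadjusted p = 0.068), with 142 to 295 FPKM in Tough and 114 to 224 FPKM in Tender. *PFKFB1*, which makes and breaks down fructose 2,6-bisphosphate, had 0.40 (standard error 0.34), and its sign turned when its transcripts were summed without a length weight. Leaving out 1 library brought the unadjusted p in limma to 0.05 or less in 4 of 12 fits for *GPD2*. The same held in 3 of 12 for *FBP2*, 1 of 12 for *PFKFB1* and 12 of 12 for *TIGAR*. Other settings also brought *GPD2* and *FBP2* below 0.05. Of 9 listed carriers of glucose and lactate, 5 were tested, 2 were higher and 3 lower in Tough, the median log2 fold change was -0.01, and 0 reached an unadjusted p of 0.05.

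No fibre type marker passed the test over all genes. Of 13 fast fibre genes, 10 were tested and 9 were higher in Tough with a median log2 fold change of 0.21 and 0 at an unadjusted p of 0.05, and the defining *MYH1*, *MYH2* and *MYH4* had no transcript in any library. Libraries without a transcript counted as 0 here, in 2 Tender libraries for *TNNC2* and in 1 Tough and 3 Tender libraries for *TNNI2*. Their log2 fold changes of 4.54 and 4.45 rest on these zeros, and so does their place among the 9 higher in Tough. *CASQ1* (log2 fold change -0.01) was at 0 in 2 Tough and 2 Tender libraries. Where assembled, *TNNC2* had 5941 to 9942 FPKM in Tough and 6436 to 12545.5 FPKM in Tender. For *TNNI2* it was 4340 to 6498 FPKM in Tough and 3873 to 6808 FPKM in Tender. The summed level of the 7 fast fibre genes with a value in all 12 libraries was 21477 to 31998 FPKM in Tough (median 23271 FPKM) and 16176 to 27863 FPKM in Tender (median 24158 FPKM). Of 12 slow fibre genes, 11 were tested and 0 were higher in Tough (39.7% of all genes were), with a median of -0.43 and 3 (*MYL2*, *MYOZ2* and *CASQ2*) at an unadjusted p of 0.05, against 1.76% of all genes lower in Tough at that p, and their summed level was 4702 to 10291 FPKM in Tough and 7564 to 13480 FPKM in Tender. *HBB*, the beta globin of red cells, had 124 to 206 FPKM in Tough and 237 to 349 FPKM in Tender (log2 fold change -0.85, unadjusted p = 0.000166, adjusted p = 0.75 in limma), and it and *ALAS2* were the 2 red cell genes tested of 6 listed. Of the other cell types, 6 of 6 fibroblast genes tested were higher in Tough (median 0.32), against 1 of 5 for adipocytes, 0 of 5 for endothelium, 1 of 4 for macrophages and 0 of 1 for lymphocytes. The part of fibre type and of other cells in the levels of the glycolytic enzymes was not tested.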

How the data were processed

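Loin muscle RNA of 12 pigs, grouped by the sample labels, was analysed from 1 library per animal; Tender 7 was not analysed here. The authors used FastQC and Trim Galore on the reads, TopHat2 2.1.0 for mapping to Sscrofa11.1 and Cufflinks 2.2.1 for assembly of each library (tools and versions per the submitters' processing notes). The deposited files give each transcript's exons, its FPKM and coverage as the authors computed them, and Cufflinks' isoform score, a deposited whole number that was not used. They hold no read counts, so the depth behind a value is known only as coverage per FPKM, and no counting error is given here; Cufflinks' confidence limits of each FPKM, also deposited, were not used.

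Transcripts were matched to NCBI Annotation Release 106 by strand. Cufflinks takes the strand of a spliced transcript from its splice sites, and unspliced transcripts without a strand were left out. Of 28195 genes on the chromosomes, 12959 had a transcript holding at least 50% of its exonic bases in the gene, and 9019 with a mean above 0.5 FPKM were tested with limma 3.58.1 in R 4.3.3 (eBayes with a trend, group only, no rescaling between libraries, Benjamini-Hochberg over all genes) on log2(FPKM + 0.5), a scale that understates changes of low genes. An enzyme without an assigned transcript in a library was missing there, while any other gene without one was at 0 there. Exact permutation tests (two-sided, 924 splits for 6 against 6, smallest p 0.00216) compared FPKM of single enzymes in 10 comparisons, and Fisher's exact test the libraries with a transcript. The thresholds follow the study's methods, with another adjustment. The test was tried on simulated data first.

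The 10 enzymes and all lists were chosen with earlier results of these data known. The genes named are the enzymes, up to 4 genes of smallest p of the isozyme and regulator lists, and the 5 closest to the mean profile; the markers and *HBB* were named after their values were seen. Alternatives were pseudocounts of 0.1 and 1, the filter, 2 scalings, 4 other gene measures, libraries without a transcript at 0 or missing, an exact Wilcoxon test, limma with robust variances or with array weights, a replicate block and each library left out; exon bases shared by all coding models assignment with no minimum share, correlations without Tough 6 and marker sums over genes with a value in every library were added after seeing the data. Other steps used scipy 1.17.1, pandas 2.3.3, numpy 2.4.6 and matplotlib 3.10.9 under Python 3.11.15.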

Additional observations from a re-analysis of the deposited data

Results flagged for a closer look

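*LDHA* in Tender 1 stood apart from its group: 1940.4 FPKM, against 870.3 to 1027 FPKM in the other 5 Tender libraries, a gap of 0.854 of the range of the group. The levels of the 10 enzymes in 17 groups of at least 4 libraries and the upstream start share of *PFKM* in 2 were checked this way. Only 1 of these stood out so. Chance alone flags about 1 in 20 such checks, so 1 flag here is about what chance gives. On the exon bases that all coding models share, Tender 1 was again the highest Tender library, at 2381 FPKM against 1242 to 1523 FPKM in the others. The other enzymes of Tender 1 did not stand out by the same measure.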

How the results depend on the processing

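The count of 0 genes passing the test over all genes held under all 30 alternatives. The smallest adjusted p in limma, 0.652 with all libraries, came near the threshold of 0.1 in some of them. It was 0.101 without Tender 2 and 0.126 with array weights. The number with an unadjusted p up to 0.05, 224 with 65 of them higher in Tough, was 639 with array weights, 347 with no filter, 377 with a plain sum of FPKM, 337 with the highest transcript, and 151 to 398 as each library was left out (378 without Tough 1, 382 without Tender 1, 398 without Tender 4). With median-of-ratios factors 134 of 277 and with quantile normalization 143 of 290 were higher in Tough. The number of enzymes higher in Tough, 8 of 10, was 5 of 9 with transcripts at least 90% in the gene, 5 of 10 with libraries without a transcript at 0, 6 of 10 with the highest transcript and 7 to 9 as each library was left out.

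Log2 fold changes turned their sign as follows. Transcripts at least 90% in the gene gave -0.19 for *PFKM* and -0.23 for *LDHA*. The highest transcript gave -0.075 for *PFKM*, -0.21 for *GAPDH* and -0.022 for *PFKFB1*. Counting libraries without a transcript as 0 gave -4.14 for *ALDOA*, -2.01 for *GAPDH* and -1.38 for *PGAM2*. Quantile normalization gave -0.034 for *ENO3* and 0.20 for *PGK1*, median-of-ratios factors 0.037 for *PGK1*, array weights -0.065 for *ALDOA*, the plain sum 0.025 for *PGK1* and -0.19 for *PFKFB1*, shared exon bases -0.046 for *GAPDH*, and no minimum share 0.065 for *PGK1*. As each library was left out, the log2 fold change was -0.053 to 0.25 for *ALDOA*, -0.14 to 0.35 for *GPI*, -0.12 to 0.036 for *PGK1* and -0.43 to 0.23 for *PKM*.

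The difference of mean FPKM, Tough minus Tender, turned its sign for *PFKM* with the highest transcript (-1.66), for *ENO3* with quantile normalization (-172), for *PKM* with transcripts at least 90% in the gene (-211), per exon base (-10.9), with the highest transcript (-86.7) and with no minimum share (-54.9), and for *ALDOA* with median-of-ratios factors (-13.6), transcripts at least 90% in the gene (-36.7) and quantile normalization (-49.0). It did so for *GAPDH* with the highest transcript (-1324) and shared exon bases (-402), and for *PGK1* with median-of-ratios factors (1.82), the plain sum (8.20), no minimum share (31.6) and quantile normalization (75.1). For *PFKM*, quantile normalization gave 157 FPKM (exact permutation p = 0.0346). Leaving out each library in turn gave 80.1 to 136 FPKM for *PFKM*, 174 to 422 for *LDHA*, -79.3 to 107 for *PKM*, -135 to 481 for *ALDOA*, -38.9 to 49.5 for *GPI* and -48.1 to 14.4 for *PGK1*. The cause of these turns was not tested.

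The animal numbers did not pair the groups: same-numbered libraries had correlations of -0.217 to 0.035 in their deviations from the group means, and 0 of 6 correlated best with their own number. The replicate block gave 172 genes with an unadjusted p up to 0.05 and 0 past the thresholds, with 7 of 8 enzymes higher in Tough and a log2 fold change of 0.036 for *PGK1*; *ALDOA* and *GAPDH* could not be fitted. Depth is unknown in reads, so it sets no limit that can be given.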
